A study of Mus musculus with 71 samples.

Results

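Meis1, Meis2 and Meis3 are the 3 mouse genes of the MEIS family of TALE homeobox transcription factors. They were followed through 9 peak tables from a study of Polycomb binding in mouse cells, and every peak whose nearest gene was 1 of the 3 was taken, at any distance from the start. This gave 41 peak entries of 72567 in all, 24 for Meis1, 12 for Meis2 and 5 for Meis3. The same stretch of DNA can appear in several tables, so the 41 entries are not 41 separate places. The genes were chosen by the RING1B values of the differentiation time course, in which Meis1 and Meis2 showed some of the largest drops, so the changes between stages are described below without a test.

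The cells were J1 mouse embryonic stem cells (ESC) with 1 of 3 forms of CBX7. WT carried the wild-type protein, CaPS carried CBX7 with an added Polycomb domain that the series title ties to committed cells, and mCaPS was a further form. The letters of both names are not explained in the sources used here. All ESC were kept on a feeder layer of mouse fibroblasts with LIF. Neural progenitor cells (NPC) were made from aggregates without LIF, with 5 uM retinoic acid from day 4, and were taken at day 6 and day 8. Embryoid bodies (EB) were taken at day 10. The ESC labels describe EB from hanging drops and name no retinoic acid, but the labels of the EB libraries themselves carry the NPC protocol, so whether these EB received retinoic acid is not settled by the sources used here. ChIP-seq measured CBX7 and RING1B in ESC (3 WT and 3 CaPS libraries each), H3K27me3 in ESC (2 and 2), RING1B in day-8 NPC (2 and 2), and RING1B over a time course of ESC, day 6 and day 8 (2 libraries per genotype and stage). CUT&RUN, which cuts out and sequences the DNA around a bound protein in native chromatin, measured RING1B in ESC (1 library each of WT, CaPS and mCaPS), H3K27me3 in ESC (1 and 1) and RING1B in day-10 EB (1 and 1). The labels do not say how many clones carried each form or whether libraries came from separate cultures. The p-values therefore measure only the spread of these libraries, shared over peaks of similar signal, and that spread may be technical. The experiment 3 RING1B samples of ESC and of day-8 NPC enter the time course and also the separate tables of those stages. Knockout libraries were not analysed here.

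MEIS proteins bind DNA together with PBX and HOX proteins and help to pattern the hindbrain, eye, limb and blood lineages; retinoic acid is known to induce Meis genes. In ESC, genes of this kind are typically held silent by Polycomb complexes. PRC2 places H3K27me3, the chromodomain protein CBX7 of PRC1 binds that mark, and RING1B is the ubiquitin ligase of PRC1.

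Meis1 spans chr11:18880428-19019651 (139.2 kb, minus strand), Meis2 chr2:115861264-116067537 (206.3 kb, minus strand) and Meis3 chr7:16174012-16186510 (12.5 kb, plus strand) in mm10. The 250 bases before a RefSeq start of each gene are shown because the Polycomb intervals lie over these starts and because Polycomb in mammals favours DNA rich in CG dinucleotides, which are in capitals. Each reads 5′ to 3′ on the strand of the gene, from RefSeq build GRCm38.p6, which has the coordinates of mm10. The Meis1 bases are chr11:19018970-19019219, those of Meis2 chr2:116064620-116064869 and those of Meis3 chr7:16175145-16175394. All 3 starts lie inside the outermost RefSeq limits of their gene.
Meis1: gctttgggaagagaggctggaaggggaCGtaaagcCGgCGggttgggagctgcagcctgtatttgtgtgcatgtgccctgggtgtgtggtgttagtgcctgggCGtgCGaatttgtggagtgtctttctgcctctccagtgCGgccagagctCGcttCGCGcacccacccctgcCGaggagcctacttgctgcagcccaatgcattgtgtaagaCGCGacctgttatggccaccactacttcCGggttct
Meis2: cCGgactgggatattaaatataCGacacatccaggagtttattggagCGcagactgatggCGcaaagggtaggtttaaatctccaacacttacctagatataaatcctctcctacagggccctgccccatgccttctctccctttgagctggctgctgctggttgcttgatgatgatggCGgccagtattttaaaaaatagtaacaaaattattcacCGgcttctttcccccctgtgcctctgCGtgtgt
Meis3: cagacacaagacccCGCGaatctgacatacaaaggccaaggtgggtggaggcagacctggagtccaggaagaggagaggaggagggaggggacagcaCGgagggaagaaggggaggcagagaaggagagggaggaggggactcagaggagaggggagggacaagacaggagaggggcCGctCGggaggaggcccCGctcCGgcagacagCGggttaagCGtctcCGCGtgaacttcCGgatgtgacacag
The Meis1 sequence held 13 CG, Meis2 held 7 and Meis3 held 12, against a median of 6 over 32851 RefSeq promoters of this length. As many or more CG were found in 31.5%, 46.3% and 33.5% of promoters, so none of the 3 windows was unusual by this count. All 250 bases of the Meis1 and Meis2 windows lay inside a RING1B CUT&RUN interval of ESC, and 63 of the Meis3 window did. Searched on both strands, none of the 3 held AGGTCA, a motif bound by retinoic acid receptors and present in 14.0% of promoters, or TGACAG, a motif bound by MEIS proteins and present in 15.9%.

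Meis1 and Meis2 each had a broad Polycomb domain over the start and, where distant peaks were listed, another at the far end of the gene. In the ESC ChIP tables of CBX7 and RING1B, which share their intervals, the Meis1 domain was chr11:19006816-19028594. At 21.78 kb it ranked 41st in width of 6326 intervals whose median was 1051 bases. The Meis2 domain was chr2:116058846-116077217, 18.37 kb wide and ranked 84th. By mean CBX7 signal, 1.44% of intervals were as strong as Meis1 and 0.948% as strong as Meis2. The time course listed almost the same promoter domains, chr11:19006759-19028516 and chr2:116059833-116077864, with 12.89 kb and 7.7 kb of them inside the genes and the rest upstream.

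The second Meis1 domain, chr11:18867062-18880471, was 13.41 kb wide and lay 145.2 kb from the start, over the last 44 bases of Meis1 and over the neighbouring noncoding gene 8430419K02Rik. The second Meis2 domain, chr2:115852347-115862441, was 10.1 kb wide, 207.2 kb from the start, with 1.18 kb inside the gene. Both are called 3′-end domains here. They appeared only in the 2 ESC-containing tables that reach beyond 10 kb from a start, the RING1B time course and the H3K27me3 ChIP of ESC, and for Meis2 in the day-8 H3K27me3 table. The other 6 Meis peaks of the time course, 5 near Meis1 and 1 near Meis3, were 0.5 to 0.88 kb wide with mean values of 2.22 to 6.25 tags per 10 M. The map of intervals shows both ends of the 2 long genes covered and their middles free of listed peaks.

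**Figure D1:**
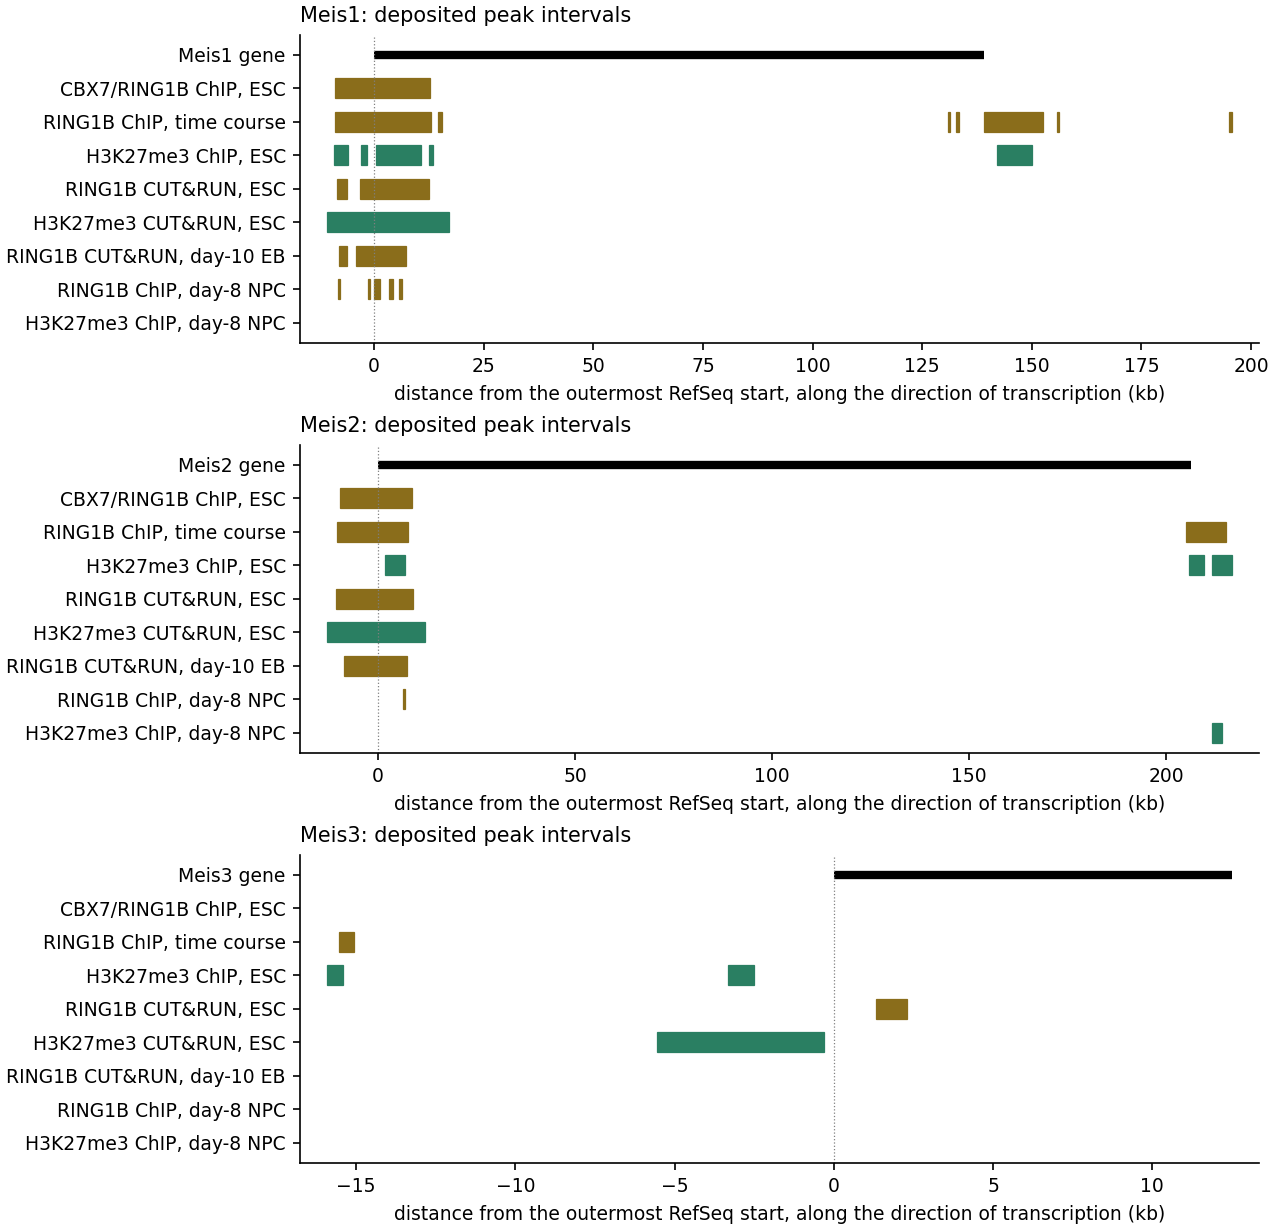
Deposited peak intervals assigned to Meis1, Meis2 and Meis3, 1 row per table, against distance in kb from the outermost RefSeq start along the direction of transcription; black bars are the genes, brown bars CBX7 or RING1B intervals, green bars H3K27me3 intervals. Broad intervals sit over the Meis1 and Meis2 starts and past their 3′ ends, while Meis3 has only narrow intervals of RING1B.

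All values are deposited signal, the number of tags in a peak per 10 M tags of the library, and compare peaks of different width only when given per kb. Library totals ran from 2.01 to 49.13 M tags, and the experiment 5 libraries of the time course, at 2.01 to 6.2 M, were the shallowest set. The part of each library that fell in listed peaks differed between genotypes. For CBX7 in ESC it was 6.39%, 17.0% and 5.57% in WT against 2.63%, 7.1% and 3.63% in CaPS in experiments 1, 2 and 3. In the time course it fell from 11.2% and 11.8% in WT ESC to 3.855% and 6.98% at day 8. Among markers of cell type, read as RING1B signal and not as expression, the summed signal over 8 neural progenitor genes was 13468 to 14981 in WT ESC and 3689 to 6635 in WT at day 8. In CaPS it was 12076 to 12660 in ESC, 6321 to 14760 at day 6 and 5500 to 10079 at day 8. Over 5 measured genes of pluripotent cells it was 3114 to 3852 in WT ESC and 1535.5 to 4802 in WT at day 8. In CaPS these genes had 3967.5 to 4184.7 in ESC and 1099.2 to 1969.6 at day 8. Over 7 fibroblast genes, the cell type of the feeder layer, the summed signal was 3945 to 4047 in WT ESC and 2912 to 3356 in CaPS ESC. At day 8 these fibroblast genes had 1155.5 to 3126 in WT and 1029.5 to 1901.1 in CaPS. The part of feeder cells in the values was not tested.

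CBX7 was lower over both Meis promoter domains in CaPS than in WT ESC. At Meis1 the WT libraries of experiments 1, 2 and 3 had 1484, 3731 and 1407 tags per 10 M, and the CaPS libraries had 580.2, 1759 and 998. CaPS was lower in each of the 3 experiments, although the groups overlapped because experiment 2 was the highest in both genotypes. The fall was 1.97-fold (log2 -0.98, SE 0.32, limma adjusted p = 0.008). At Meis2 the WT values were 1694, 4868 and 1457 and the CaPS values 744, 2300.45 and 1162, lower in 3 of 3 experiments and again overlapping between groups. Here the fall was 1.82-fold (log2 -0.86, SE 0.33, limma adjusted p = 0.0248).

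Both Meis domains thus passed, as did 44.3% of all intervals, and the median change of all 6326 was -0.85, close to that of the Meis genes. Only 0.0632% of intervals were called higher. Bulk chromatin cannot tell fewer cells with bound CBX7 from less CBX7 per cell. The calls depended on the treatment of the experiments and of the total signal. Without the experiment block the adjusted p was 0.437 for Meis1 and 0.485 for Meis2, without experiment 1 it was 0.35 and 0.441, and without experiment 2 it was 0.379 and 0.507. With every library scaled to the same sum over the peaks, Meis1 stood at 0.07 and Meis2 at 0.19 on the log2 scale, the median of all intervals moved to 0.11, and 103 intervals were called lower and 81 higher in place of 2801 and 4.

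RING1B in the same ESC was not called different at either gene. Meis1 had 1526, 4158 and 2728 tags per 10 M in WT and 828.5, 1896 and 2546 in CaPS. It was lower in 3 of 3 experiments, by log2 0.88 and 1.13 in experiments 1 and 2 but by only 0.1 in experiment 3. The mean difference was -0.7 (SE 0.41, limma adjusted p = 0.323). Meis2 had 1746, 4818 and 2530.3 in WT and 916, 2255 and 2679.7 in CaPS, lower in 2 of 3 experiments, with a mean log2 difference of -0.65 (SE 0.41, limma adjusted p = 0.368). Of all intervals 0.142% were called lower and 0.0% higher, and the median was -0.67. With equal sums over the peaks Meis1 was at 0.08 and Meis2 at 0.13, and the median of all intervals at 0.07. Without experiment 3 both Meis domains were called, each at log2 -1.01, with limma adjusted p = 1.44e-13 for Meis1 and 2.46e-15 for Meis2. These p-values rest on experiments 1 and 2 alone and on a spread shared over peaks. The share of all intervals called in that fit was not counted, so nothing particular to the Meis genes is read from the calls. The 3rd experiment also had the smallest CBX7 difference, at log2 -0.5 for Meis1 and -0.33 for Meis2. Per kb, WT ESC had 70.1, 190.9 and 125.3 tags of RING1B over Meis1 and 95, 262.2 and 137.7 over Meis2, and CaPS had 38.0, 87.0 and 116.9 against 49.8, 122.7 and 145.9. Meis2 was the denser in each of the 6 libraries.

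**Figure D2:**
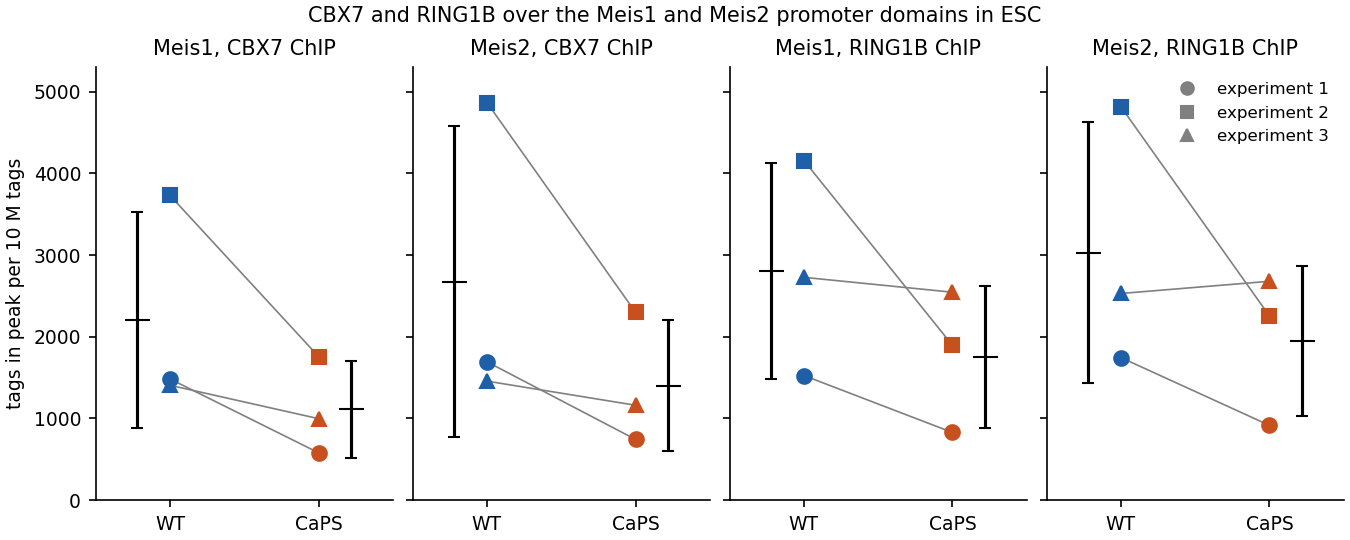
CBX7 and RING1B ChIP signal (tags in peak per 10 M tags, linear axis) over the Meis1 and Meis2 promoter domains in WT and CaPS ESC. Each symbol is 1 library, lines join libraries of 1 experiment, and black bars give mean and SD (n = 3); CBX7 is lower in CaPS in all 3 experiments at both genes, while the RING1B values of experiment 3 lie close together.

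H3K27me3 showed no called difference at any of the 10 Meis peaks of the ESC ChIP table, where 0.0% of all peaks were called lower and 0.0% higher by limma. Over all 9195 peaks 101 had an unadjusted p under 0.05 in limma, and edgeR and DESeq2 also called 0. With equal sums over the peaks limma called 38 lower and 11 higher, none of them a Meis peak. The strongest, chr11:19008977-19019126, which lies wholly inside Meis1 with its centre in intron 3, had 234 and 486 tags per 10 M in WT of experiments 1 and 5 and 272 and 450.2 in CaPS. Experiment 5 was the higher in both genotypes, and the 2 genotypes overlapped fully. The log2 difference was 0.05 (SE 0.51, limma adjusted p = 1.0). At the Meis2 start, chr2:116060693-116065804 had 123 and 195 in WT and 116 and 202 in CaPS (log2 -0.02, SE 0.51, limma adjusted p = 1.0). A further 9.78 kb peak covers the upstream part of the Meis2 domain but is assigned to 2810405F15Rik; it had 232 and 481 in WT and 257 and 387 in CaPS. The 3′-end domains also carried the mark. Past the Meis1 end, chr11:18869668-18877549 had 217 and 392 in WT and 211 and 316 in CaPS. Beyond Meis2, chr2:115850849-115855837 had 107 and 239.52 in WT and 133 and 159.83 in CaPS, and chr2:115857957-115861686 had 83.7 and 195 in WT and 75.5 and 148 in CaPS. Over the 10 Meis peaks the log2 differences ran from -0.53 to 0.05, against a median of -0.03 for all peaks; with an SE of 0.5 to 0.52 the fit could not resolve differences of this size.

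CUT&RUN gave RING1B values for mCaPS as well. Over the Meis1 start, chr11:19007162-19022890, ESC had 613 tags per 10 M in WT, 441 in CaPS and 267 in mCaPS. Over Meis2, chr2:116058749-116078231, the values were 685, 582 and 311. The order WT, CaPS, mCaPS was the same at both genes. The CaPS to WT ratio was 0.72 at Meis1 (95% exact interval 0.648 to 0.801) and 0.85 at Meis2 (0.773 to 0.934), and the median over all 10106 peaks was 0.632. For mCaPS against WT the ratios were 0.436 (0.383 to 0.495) and 0.454 (0.403 to 0.511), with a median of 0.493. Between the 2 altered forms, mCaPS over CaPS was 0.605 (0.523 to 0.699) at Meis1 and 0.534 (0.469 to 0.609) at Meis2, with a median of 0.778. There was 1 library per genotype, so these intervals cover counting error only and no test between genotypes was possible. A second, smaller Meis1 peak upstream of the start, chr11:19025891-19028099, followed the same order with 70.5, 43.7 and 21.2.

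Counting changes beyond 2-fold, CaPS against WT had 1 of 4 Meis peaks lower, at Meis3, where the background was 27.3% lower and 0.861% higher. Against WT, mCaPS had 3 of 4 lower, both Meis1 peaks and Meis2, with 51.4% lower and 0.623% higher over all peaks. Against CaPS, mCaPS had 1 lower, the upstream Meis1 peak, and 1 higher, Meis3, with backgrounds of 14.9% and 5.28%. That Meis3 ratio was 2.08, from 13.5 and 6.5 tags, and its 95% exact interval of 0.842 to 7.41 includes 1. Peaks held 4.61% of all tags in WT, 3.01% in CaPS and 2.07% in mCaPS; the part of this in the ratios was not tested. With equal sums over the peaks, mCaPS over WT was 0.971 at Meis1 and 1.01 at Meis2, and CaPS over WT was 1.1 and 1.3.

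H3K27me3 CUT&RUN covered the same starts more widely, with 27.8 kb at Meis1 (chr11:19002499-19030300) and 24.81 kb at Meis2 (chr2:116055593-116080400). Meis1 had 617 tags per 10 M in WT and 950.05 in CaPS, a ratio of 1.54 (95% exact interval 1.42 to 1.67). Meis2 had 600.2 and 773, a ratio of 1.29 (1.18 to 1.4). The median ratio of all 4926 peaks was 1.18, and 84.4% of peaks had a lower ratio than Meis1. None of the 3 Meis peaks passed 2-fold, with 1.08% of all peaks lower and 4.57% higher. By CUT&RUN as deposited, CaPS ESC had fewer RING1B tags and more H3K27me3 tags than WT over both starts, each from 1 library per genotype. The medians of all peaks moved the same ways, at 0.632 for RING1B and 1.18 for H3K27me3. With equal sums the H3K27me3 ratios were 1.23 and 1.02, and the RING1B ratios turned to 1.1 and 1.3.

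**Figure D3:**
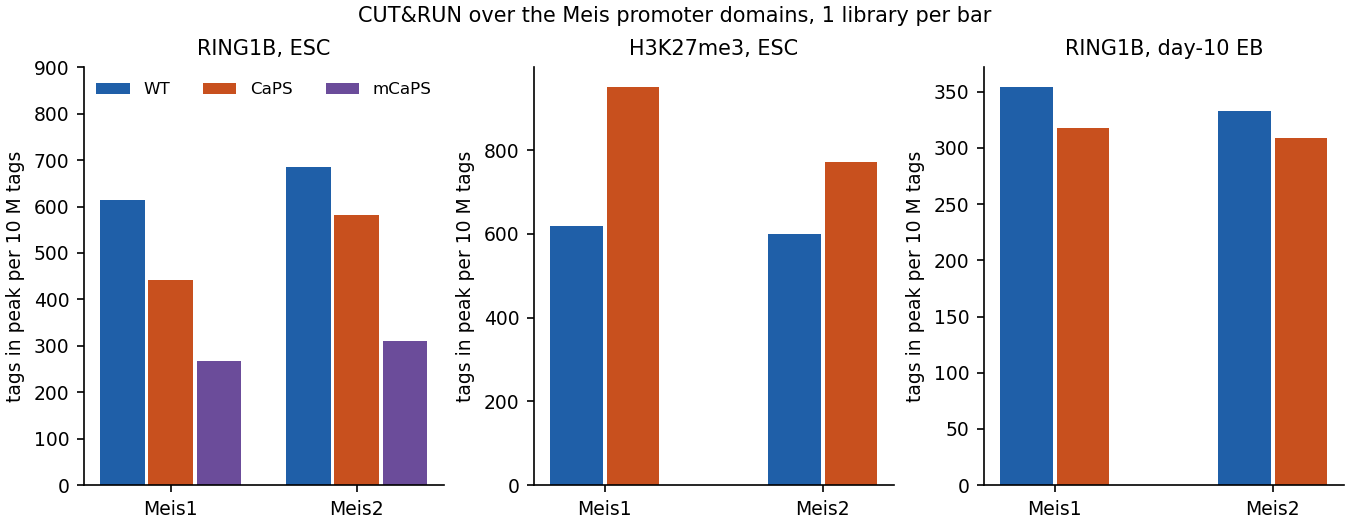
CUT&RUN signal (tags in peak per 10 M tags, linear axes from 0) over the Meis1 and Meis2 promoter domains, for RING1B in ESC, H3K27me3 in ESC and RING1B in day-10 EB; each bar is 1 library of WT, CaPS or mCaPS. RING1B in ESC falls from WT to CaPS to mCaPS at both genes, while WT and CaPS lie close together in EB.

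RING1B was lower at day 6 and lower again at day 8 than in ESC over all 4 broad domains, in both genotypes and both experiments. Over the Meis2 promoter domain, WT ESC had 2538 and 3435 tags per 10 M in experiments 3 and 5, day 6 had 306 and 374, and day 8 had 143 and 193. That left 5.64% and 5.63% of the ESC level. In CaPS the same domain went from 2667 and 2794 to 281 and 619 and then to 199 and 355, leaving 7.45% and 12.7%. Stages did not overlap in WT; in CaPS the ESC libraries were apart from both later stages, while day 6 of experiment 3 lay below day 8 of experiment 5.

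The Meis1 promoter domain went from 2722 and 3104 in WT ESC to 483 and 488 at day 6 and to 211 and 268 at day 8, leaving 7.74% and 8.62%. In CaPS it went from 2549 and 2250.4 to 326 and 588 and to 191 and 321, leaving 7.49% and 14.3%. No library of a later stage reached any ESC library. Most of the difference was there by day 6: in WT the log2 change was -2.58 at Meis1 and -3.12 at Meis2 from ESC to day 6, then -1.03 and -1.02 from day 6 to day 8.

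The 3′-end domains followed the same order of stages from lower ESC levels. Past Meis1, WT had 1536.5 and 1588 in ESC, 342 and 451 at day 6, and 113 and 201 at day 8; CaPS had 1282 and 1234, then 280.4 and 572, then 120.2 and 187. Past Meis2, WT had 888 and 1331, then 194 and 227, then 95.65 and 156; CaPS had 805 and 581, then 111 and 254, then 85.6 and 138. At day 8 they kept 7.38% and 12.6% (Meis1) and 10.8% and 11.7% (Meis2) of the WT ESC level, and 9.37% and 15.2%, and 10.6% and 23.8%, of the CaPS ESC level. Per kb, WT ESC held 133.8 and 116.5 tags at the promoter and 3′-end domains of Meis1 and 165.7 and 109.9 at those of Meis2. By day 8 these were 11.0 and 11.7 at Meis1 and 9.31 and 12.4 at Meis2, so in WT the promoter domains were denser than the 3′ ends in ESC. At day 8 the Meis2 3′ end was denser than its promoter domain in both WT experiments, at 9.47 against 7.93 and 15.4 against 10.7. At Meis1 the order differed between experiments, with 8.46 at the 3′ end against 9.69 in experiment 3 and 15.0 against 12.3 in experiment 5.

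Of the 10 Meis peaks, 5 were lower in both experiments at day 8 than in ESC in WT (53.7% of all 15091 peaks) and 7 in CaPS (52.4%). The same 5 and 7 had stages that did not overlap (45.0% and 44.5% of all peaks). At day 6 the counts against ESC were 4 in WT (46.1%, and 38.4% without overlap) and 6 in CaPS (36.8% and 27.9%), all of them without overlap. From day 6 to day 8, 8 were lower in WT (40.0%), 7 of them without overlap (26.7%), and 6 in CaPS (50.2%), 4 of them without overlap (27.6%). These contrasts chose the genes, so nothing is read from the counts. By size of the mean WT drop from ESC to day 8, the Meis2 promoter ranked 3rd, the Meis1 promoter 11th, and the 3′-end domains of Meis1 and Meis2 32nd and 84th of 15091. Among the 303 peaks at least 10 kb wide, the median share of ESC signal left at day 8 was 28.7% and 62.8% in the WT experiments and 38.6% and 63.5% in CaPS. With equal sums over the peaks, a scaling added after the data were seen, the WT changes to day 8 were log2 -2.46 for Meis1 and -3.0 for Meis2 in place of -3.61 and -4.14, and the median of all peaks moved from -0.61 to 0.36.

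**Figure D4:**
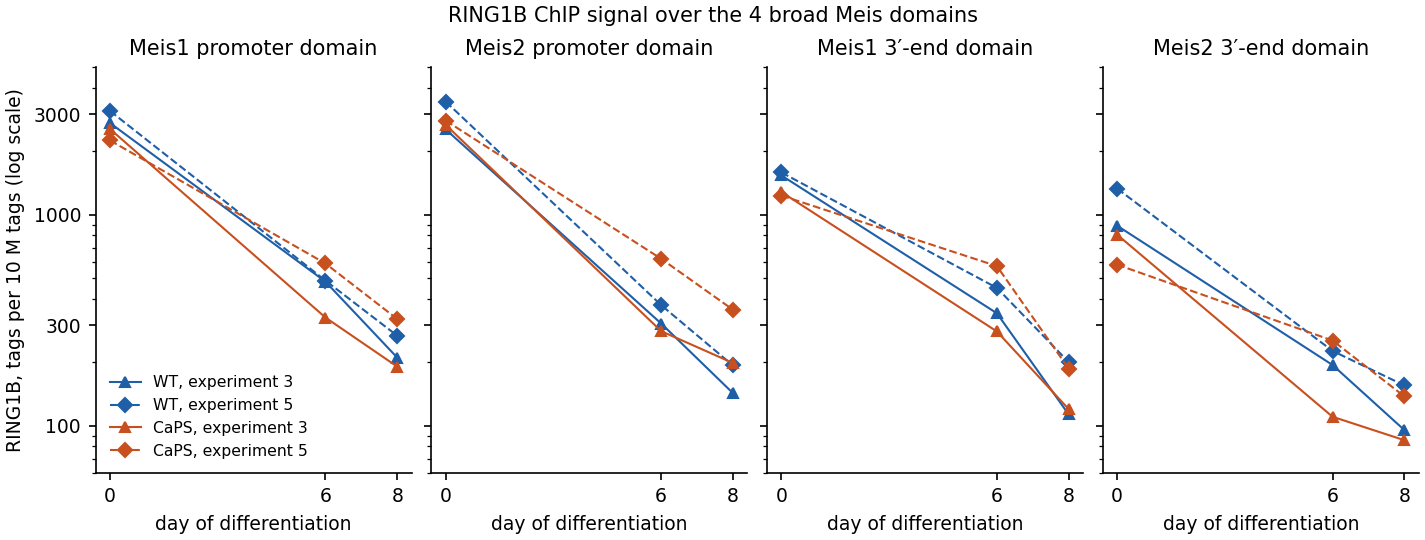
RING1B ChIP signal (tags per 10 M tags, log axis) against day of differentiation for the promoter and 3′-end domains of Meis1 and Meis2; each line joins the libraries of 1 experiment, blue for WT and orange for CaPS, solid for experiment 3 and dashed for experiment 5. Every line descends from ESC through day 6 to day 8, and both CaPS lines lie above their WT partners at day 8 only over the Meis2 promoter domain.

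The CaPS form was then compared with WT at each stage of the time course. The genes were chosen by RING1B changes in these same libraries, so the p-values below are not independent of that choice. In ESC, with 0.0265% of peaks called lower and 0.0398% higher, no Meis peak was called. The largest difference among the broad domains was at the Meis2 3′ end, log2 -0.67 (SE 0.36, limma adjusted p = 0.634), at -0.14 in experiment 3 and -1.2 in the shallow experiment 5. Fitted on the 4 ESC libraries alone it reached a limma adjusted p of 0.0134, against 0.13 to 0.961 under the other alternatives, and without experiment 5 the value is -0.14. The share of all peaks called in the fit on 4 libraries was not counted. At day 6, with 0.325% lower and 3.66% higher, the 4 domains ran from -0.32 to 0.3 with limma adjusted p between 0.637 and 0.977, and each was lower in 1 experiment and higher in the other. At day 8, with 0.245% lower and 0.769% higher, the Meis2 promoter domain was higher in CaPS in 2 of 2 experiments, by log2 0.47 and 0.87, but the mean of 0.67 (SE 0.4) had a limma adjusted p of 0.624. The Meis1 promoter domain differed by 0.06 (SE 0.4, limma adjusted p = 0.981). With equal sums, calls over all peaks were 168 lower and 247 higher at day 6 and 146 and 137 at day 8, against 49 and 552, and 37 and 116, as deposited.

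The stage changes of the 2 genotypes can be set side by side, but they come from the contrasts that chose the genes, so they are given without a test. From ESC to day 8 the CaPS change minus the WT change was 0.34 at the Meis1 promoter, 0.79 at the Meis2 promoter, 0.3 at the Meis1 3′ end and 0.5 at the Meis2 3′ end, with a median of 0.2 over all peaks. From ESC to day 6 it was 0.13, 0.42, 0.34 and 0.35 in the same order, with a median of 0.37. With equal sums over the peaks all 4 day-6 values were negative, from -0.38 to -0.1, and at day 8 the Meis1 promoter was at -0.1 and its 3′ end at -0.14. For day 8 limma had 0.0729% of all peaks lower and 0.199% higher, for day 6 it had 0.0199% and 0.351%, and 0 of the 10 Meis peaks were called in either; nothing is read from these counts or signs.

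A separate day-8 table, with its own peaks and with experiments 3 and 4, held only small remnants of the domains. Meis1 had 5 peaks and Meis2 had 1, between 0.5 and 1.36 kb wide, and limma called 0.0% of all peaks lower and 0.0% higher. Before adjustment 532 of the 5393 peaks were under 0.05 in limma; DESeq2 called 15 lower and 101 higher, edgeR 0, and limma with equal sums over the peaks 243 lower and 192 higher. The 5 Meis1 peaks covered 3.9 kb of the 21.76 kb promoter domain of the time course. The peak over the Meis1 start, chr11:19018301-19019662, had 13.4 and 16.9 tags per 10 M in WT of experiments 4 and 3 and 32.0 and 17.4 in CaPS (log2 0.62, SE 0.79, limma adjusted p = 0.866). Only the library of CaPS experiment 4 stood above the others. The Meis2 peak, chr2:116060661-116061159, had 19.1 and 3.87 in WT and 7.88 and 8.49 in CaPS, opposite directions in the 2 experiments (log2 -0.11, SE 0.75, limma adjusted p = 0.985). A 1.58 kb peak over the same Meis2 domain is assigned to G630016G05Rik; it had 24.9 and 23.2 in WT and 13.1 and 17.8 in CaPS, lower in both experiments. Another pair of Meis1 peaks was past 2-fold without being called. Inside the gene, chr11:19013395-19014029 had 9.56 and 9.67 in WT and 2.1 and 5.72 in CaPS (log2 -1.22, SE 0.79, limma adjusted p = 0.608). Upstream, chr11:19020658-19021156 had 1.91 and 4.35 in WT and 5.78 and 9.27 in CaPS (log2 1.08, SE 0.84, limma adjusted p = 0.697), so neighbouring remnants went in opposite directions. The Meis peaks named here rest on 1 to 44 tags per library, and their SE of 0.75 to 0.84 leaves a 2-fold change within the error.

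For H3K27me3 at day 8 the table had a single Meis entry, beyond the 3′ end of Meis2 at chr2:115853452-115855776, and none over the Meis1 or Meis2 starts. Its columns are the authors' pooled values, 127.56 per 10 M in WT (57 tags) and 20.98 in CaPS (69 tags). The ratio was 0.164 (95% exact interval 0.114 to 0.238), and 1 of 1 Meis peak was past 2-fold lower, as were 54.5% of all peaks, with 3.06% higher. The median ratio of all peaks was 0.469. The WT column had a total of 4.47 M tags and 16.4% of them in peaks, against 32.88 M and 8.2% for CaPS; the part of this in the ratio was not tested. With equal sums the ratio was 0.328.

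In day-10 EB broad RING1B intervals were still listed at both starts. Meis1 had 354 tags per 10 M in WT and 317 in CaPS over 11.39 kb (chr11:19012422-19023816), a ratio of 0.897 (0.78 to 1.03). Meis2 had 333 and 309 over 16.06 kb (chr2:116060182-116076240), a ratio of 0.927 (0.804 to 1.07). Both intervals include a ratio of 1, and both ratios are below the median of 1.12 over all peaks. The upstream Meis1 peak, chr11:19025806-19027653, went the other way, with 31.3 in WT and 43.9 in CaPS, a ratio of 1.4 (0.9 to 2.15). None of the 3 Meis peaks passed 2-fold (8.84% of all peaks lower, 16.6% higher). EB and NPC were profiled by different assays in separate tables, so their levels are not compared.

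Meis3, a 12.5 kb gene, had narrower Polycomb intervals near its start than its paralogs, and lower totals in them. Per kb, H3K27me3 in WT ESC was closer to the paralogs. It was 16.9 by CUT&RUN against 22.2 at Meis1 and 24.2 at Meis2, and 23.2 by ChIP against 35.5 and 31.2 at their main peaks. RING1B by CUT&RUN in WT was 16.0 per kb against 39.0 and 35.2. Meis3 had no interval in the ESC ChIP tables of CBX7 and RING1B. By CUT&RUN a 0.96 kb RING1B peak that spans the start used above, with its centre in intron 1, chr7:16175332-16176296, had 15.4 tags per 10 M in WT, 5.73 in CaPS and 11.9 in mCaPS, from 29.5, 6.5 and 13.5 tags. The CaPS to WT ratio of 0.371 had an exact interval of 0.118 to 0.854. H3K27me3 CUT&RUN over 5.23 kb upstream, chr7:16168470-16173696, gave 88.3 in WT and 91.2 in CaPS, a ratio of 1.03 (0.807 to 1.31). The ChIP peak within it, chr7:16170687-16171501, had 15.4 and 22.6 in WT and 12.7 and 17.3 in CaPS. In the time course its 1 peak, chr7:16158458-16158956, lay 16.7 kb upstream inside the neighbouring gene Slc8a2 and averaged 4.64 tags per 10 M.

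The promoter domains with the time-course pattern most like Meis1 were those of Onecut3, Grid1, Kcnk9, Wnt7b and Elfn1, with root mean square log2 differences of 0.22 to 0.3 over the 12 libraries after each peak was centred on its own mean. For Meis2 they were Zmiz1, Onecut3, Pknox2, Kcnk9 and Grid1, at 0.34 to 0.42. The median over 2046 candidate genes was 1.03 for Meis1 and 1.17 for Meis2, and Meis1 and Meis2 differed from each other by 0.3. Onecut3, Grid1 and Kcnk9 stood in both lists. Since the 12 libraries share their depth and their totals, this likeness is a description. The weak Meis3 peak had no gene closer than 1.1.

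Pknox2 is itself a TALE homeobox gene. Of the 9 other TALE genes listed, which include the PBX partners of MEIS, 4 had a CBX7 interval in ESC and 2 were called lower in CaPS, Pknox2 at log2 -0.98 (limma adjusted p = 0.00186) and Mkx at -1.03 (0.000693). The list median was -0.8 against -0.85 for all intervals, of which 44.3% were called lower. None was called for RING1B or H3K27me3 in any comparison. In WT, RING1B at Pknox2 changed by log2 -3.26 from ESC to day 8, while the other 7 measured TALE genes ran from -1.16 to -0.11. In CaPS Pknox2 was at -2.54, and the other 7 ran from -1.57 at Pbx2 to 1.77 at Pbx4. Of the 8, 5 were lower and 0 higher in both WT experiments, and 4 lower and 3 higher in both CaPS experiments. Of all peaks, 53.7% were lower in both experiments in WT and 52.4% in CaPS. The share of all peaks higher in both was not counted. Of 10 retinoic acid response genes, 5 had a CBX7 interval and 3 were called lower: Hoxb1, the homeobox gene of the hindbrain, at -1.18, Cyp26a1, which breaks down retinoic acid, at -1.0, and Dhrs3, a retinaldehyde reductase, at -0.96. Of all intervals 44.3% were called lower, and the list median was -0.96 against -0.85 for all. At day 8 in WT, 6 of the 7 with a time-course peak were lower than in ESC in both experiments, with a median of -1.56, against 53.7% of all peaks and a median of -0.61. In CaPS it was also 6 of 7, with a median of -1.4 against -0.48. The lists take 1 main peak per gene, unlike the background of all peaks. Among the marker lists in WT, 7 of 8 neural progenitor genes were lower in both experiments, with a median of -1.68. So were 7 of 7 fibroblast genes (-1.32) and 3 of 5 pluripotent genes (-0.6). The fall was therefore not particular to the retinoic acid list. In WT the 2 Meis promoter domains were at -3.61 and -4.14.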

How the data were processed

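The files hold ChIP-seq and CUT&RUN peak tables in mm10. The deposited signal is the number of tags in each peak scaled to 10 M tags per library, written by HOMER annotatePeaks, per the file headers. Reads had been handled with HOMER 4.10.4, SAMtools 1.9, Bowtie2 2.3.4.3 and cutadapt 1.14 against mm10 and dm6, according to the submitters' processing notes. No source used here says whether the totals include a correction for the Drosophila spike-in. The H3K27me3 columns of day-8 NPC are pooled values, and 2 RING1B CUT&RUN columns matching no sample were not used. Tables were scaled separately, so levels are compared within a table only.

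CaPS was compared with WT by limma 3.58.1 with trend in R 4.3.3 on log2(value + 1) with the experiment as a block, over all peaks of a table, with Benjamini-Hochberg adjustment and a threshold of 0.05. Fold changes are on that scale. The prior degrees of freedom were infinite for every table fitted. Each limma SE and p-value therefore rests on the spread shared by peaks of similar signal, not on that of the single peak. With 1 library per group, ratios have exact 95% Clopper-Pearson intervals, for counting error only, and called means past 2-fold. A floor of 3 tags is worth 0.611 to 14.947 tags per 10 M. The fit was also run on simulated data with 200 changed peaks. Those data had no shift of all peaks between genotypes, unlike the CBX7 values, so nothing is read from that run. Multiplied by the library totals in the headers, 100.0% of values gave whole read ends (within 0.049), so edgeR 4.0.16 and DESeq2 1.42.0 were run on recovered tags; edgeR called 2522 peaks lower and 3 higher for CBX7.

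Blocking follows the series design, in which comparisons were made between experiments run together. Same-numbered libraries correlated at 0.04 to 0.3 for CBX7, -0.02 to 0.23 for RING1B in ESC, 0.09 for H3K27me3, 0.25 for day-8 RING1B and 0.06 to 0.22 in the time course.

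The genes, their lists and the comparisons were chosen with earlier results of these data known. Main peaks are the strongest within 10 kb of a start, else the strongest; they, the broad 3′-end domains and any peak called or past 2-fold in a main comparison are given in full, except weak time-course peaks, given by range. The 3′-end domains were singled out after their values were seen. The 5 genes named for likeness had the smallest root mean square difference of log2(value + 1), among peaks with a mean of at least 50.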

Additional observations from a re-analysis of the deposited data

Results flagged for a closer look

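At 3 weak Meis1 peaks of the RING1B time course, the WT experiments both moved one way between stages and the CaPS experiments the other, and all rest on few tags. At chr11:18824006 the change from day 6 to day 8 was -1.22 in WT relative to CaPS (mean log2 difference). WT had 8.17 and 4.98 tags per 10 M at day 6 and 6.77 and 4.84 at day 8, while CaPS had 2.65 and 0.0, then 3.16 and 2.94; this difference was not tested. At chr11:18886208 the change from ESC to day 8 was 2.79 higher in WT. WT had 1.88 and 0.0 in ESC and 3.81 and 1.61 at day 8, while CaPS had 7.33 and 8.27, then 2.57 and 0.98. At chr11:19004168 the change from ESC to day 6 was 1.06 higher in WT, from 4.84 and 3.67 to 8.44 and 4.98, against 10.8 and 12.4 to 7.08 and 8.26 in CaPS. Nothing is read from these differences, and no test of them is used. Stage changes chose the genes and opposite directions chose these peaks.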

How the results depend on the processing

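The 2 CBX7 calls became 0 with no replicate block, with equal sums over the peaks, with limma without trend and with DESeq2, and ranged from 0 to 2 when 1 experiment was left out. RING1B in ESC had 0 calls and ranged from 0 to 2, with 2 without experiment 3. In the time course, ESC had 1 call when only the 4 ESC libraries were fitted, and day 6 had 1 with equal sums (Meis2 3′ end, log2 -0.72). Of CUT&RUN peaks past 2-fold in ESC, CaPS over WT went from 1 to 0 with equal sums and to 0 with 5 added to values; mCaPS over WT from 3 to 0 with equal sums; mCaPS over CaPS from 2 to 1 with equal sums, 1 with 1 added and 0 with 5 added. The cause of these changes was not tested. The shares of all peaks called without 1 experiment, without trend or on the 4 ESC libraries alone were not counted.

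Without the replicate block, calls over all peaks went from 2801 lower to 2 for CBX7, from 9 to 0 for RING1B in ESC, from 0 to 26 lower and 11 higher in day-8 NPC, and from 552 higher to 153 at day 6; no other Meis call changed. The pairing is given with the methods. With DESeq2 CBX7 had 203 lower and 17 higher, and with edgeR RING1B in ESC had 1 lower.

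With equal sums the sign turned for CBX7 (Meis1 0.07, Meis2 0.19), RING1B in ESC (0.08, 0.13) and H3K27me3 at Meis2 (0.06). In the time course the Meis2 promoter was at 0.0 in ESC and -0.1 at day 6, the Meis1 3′ end at -0.37 at day 6, and the Meis1 promoter at -0.26 at day 8. The change to day 6 differed by -0.18 (Meis1 3′ end), -0.38 (Meis1), -0.17 (Meis2 3′ end) and -0.1 (Meis2), and that to day 8 by -0.14 (Meis1 3′ end) and -0.1 (Meis1). DESeq2 turned Meis2 for CBX7 (0.05), RING1B in ESC (0.02) and H3K27me3 (0.04), the Meis1 3′ end (-0.42) and Meis2 (-0.17) at day 6, Meis1 at day 8 (-0.3), and the differences to day 6 (-0.04 for the Meis1 3′ end, -0.28 for Meis1, -0.14 for the Meis2 3′ end).

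Leaving out 1 experiment, values with no test, gave H3K27me3 from -0.09 to 0.05 at Meis2 and -0.11 to 0.22 at Meis1. It gave -0.3 to 0.07 for Meis2 in time-course ESC. Day 6 gave -0.29 to 0.34 (Meis1 3′ end), -0.56 to 0.27 (Meis1), -0.81 to 0.16 (Meis2 3′ end) and -0.12 to 0.73 (Meis2). Day 8 gave -0.1 to 0.08 (Meis1 3′ end) and -0.14 to 0.26 (Meis1). The differences in change to day 6 gave -0.02 to 0.71, -0.47 to 0.73, -0.67 to 1.36 and -0.19 to 1.03 in the same order, and those to day 8 gave -0.05 to 0.73 (Meis1) and -0.02 to 1.02 (Meis2 3′ end).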
